A study of Mus musculus with 36 samples.

Results

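The genes described here encode the subunits of the transcription factor NF-kB and the inhibitors and related proteins that act back on it. They were measured in the distal colon of mice, among them mice dosed with small interfering RNA (siRNA) against Tnf. They are 10 genes chosen by name. The subunits are Rel, Rela, Relb, Nfkb1 and Nfkb2, and the inhibitors Nfkbia, Nfkbie and Tnfaip3. Nfkbiz and Bcl3 encode relatives of the inhibitors and can raise or lower the output of genes. Each of the 10 genes was represented by the probe set annotated to it alone, or the one of highest mean signal where there were several. Of the 10 genes 9 had such a probe set, exactly 1 each, among 19938 genes with one in all, and Nfkb1 was not analysed here. The rule used no measured difference. All 36 mice are labelled as given 5% DSS (dextran sulfate sodium), which damages the gut lining and serves as a model of inflammatory bowel disease. The groups were 8 mice dosed into the rectum with an siRNA against TNFa carrying O-methyl-propanediol nucleotides (siTNF-OMe-P), 6 with one carrying O-methyl nucleotides (siTNF-OMe), 6 with the unmodified one (siTNF), 7 with a scrambled siRNA (scrambled) and 9 labelled Control. The design text names the 4 siRNA-dosed groups alone, so what the Control mice received is not settled, and "Control" is used as a name. Strain, sex, age, siRNA dose and times are not given in the sources used here.

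In resting cells NF-kB dimers are held in the cytoplasm by IkB proteins. Signals such as tumour necrosis factor, the product of Tnf, activate a kinase complex that marks the IkB proteins for destruction, and the freed dimers enter the nucleus. Rela and Rel serve the classical pathway, while Relb pairs with the processed product of Nfkb2 in the alternative pathway. NF-kB induces several of its own inhibitors, Nfkbia and Tnfaip3 foremost, which closes a negative feedback loop. In the colon, NF-kB in macrophages and stroma drives inflammatory cytokines, while in the epithelium it also protects the barrier.

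Values are log2 signals of 28853 probe sets, 1 array per mouse, which ran from 4.95 to 14.1. A difference of 1 is a doubling, and signals of different probe sets are not on a common scale. For the tissue label, 14 colon epithelium markers, all with a probe set in the annotation, had array means between 11.8 and 12.4 on all 36 arrays. The array medians over all probe sets ran from 7.98 to 8.25. The spread of an array over its probe sets, here called array SD, ran from 1.55 to 1.89, and 8 arrays lay under 1.7 (4 Control, 2 siTNF-OMe-P, 1 siTNF and 1 scrambled). These are called the narrow arrays. RMA, the method named for these values, usually includes quantile normalization, which leaves arrays with nearly the same spread, and no source used here names a step behind the differing spreads. The arrays were made in 3 amplification and 2 hybridization batches, per the labels, and every batch held mice of all 5 groups. Differences were tested with limma on all 36 arrays with both batches as terms, two-sided, and p-values were adjusted by the Benjamini-Hochberg method over all probe sets, with 0.05 as the threshold for a call.

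The promoters of the feedback genes are shown because NF-kB regulates many of its own genes. RefSeq windows of GRCm38.p6, 250 bases before to 50 after a transcript start, were at hand for 7 of the 9 genes. The kappaB consensus of 10 bases (3 G, a purine, any base, A or T, 2 pyrimidines and 2 C), searched on both strands, was in a window of 6 of these 7 genes: Nfkbia, Tnfaip3, Nfkb2, Rel, Nfkbie and Bcl3. It was in 1388 of 27025 genes with a window (5.14%). The windows of Rela and of Tnf held no match to these letters. A match describes letters and is not a measured site. The windows of 4 genes follow, read along the gene's own strand, with the matches in capitals (for Nfkb2, the first of its 3 windows). The match in Nfkbia begins at position -29 from the transcript start.
Nfkbia (chr12:55492598-55492897, minus strand): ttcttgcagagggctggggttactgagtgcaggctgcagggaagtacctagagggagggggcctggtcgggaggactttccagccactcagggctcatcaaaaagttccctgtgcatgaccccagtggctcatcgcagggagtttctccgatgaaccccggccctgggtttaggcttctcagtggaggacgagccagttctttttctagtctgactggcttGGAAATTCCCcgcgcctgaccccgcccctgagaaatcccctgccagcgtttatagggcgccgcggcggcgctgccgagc
Nfkb2 (chr19:46304487-46304786, plus strand): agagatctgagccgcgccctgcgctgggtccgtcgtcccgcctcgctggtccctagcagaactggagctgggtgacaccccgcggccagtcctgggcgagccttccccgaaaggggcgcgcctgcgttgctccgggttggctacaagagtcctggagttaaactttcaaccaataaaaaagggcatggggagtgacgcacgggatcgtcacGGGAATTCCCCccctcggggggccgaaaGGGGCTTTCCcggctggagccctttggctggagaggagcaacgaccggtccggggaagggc
Rel (chr11:23770920-23771219, minus strand): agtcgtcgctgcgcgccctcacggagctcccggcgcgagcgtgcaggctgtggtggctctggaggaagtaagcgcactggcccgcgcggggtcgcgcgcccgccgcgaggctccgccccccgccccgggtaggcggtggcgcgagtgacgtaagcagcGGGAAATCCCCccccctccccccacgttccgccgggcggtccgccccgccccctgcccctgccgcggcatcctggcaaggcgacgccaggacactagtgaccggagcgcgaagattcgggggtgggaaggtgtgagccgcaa
Bcl3 (chr7:19822706-19823005, minus strand): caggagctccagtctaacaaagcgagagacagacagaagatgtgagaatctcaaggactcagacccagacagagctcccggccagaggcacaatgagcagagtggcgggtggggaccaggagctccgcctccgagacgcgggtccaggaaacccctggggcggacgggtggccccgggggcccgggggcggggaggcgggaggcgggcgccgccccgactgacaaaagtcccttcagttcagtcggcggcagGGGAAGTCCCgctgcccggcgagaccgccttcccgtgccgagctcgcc

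The targeted gene was examined first. Tnf signals ran from 8.42 to 8.94 with a median of 8.70 in siTNF-OMe-P, from 8.41 to 9.09 with a median of 8.80 in siTNF-OMe, and from 8.72 to 9.42 with a median of 9.17 in siTNF. They ran from 8.36 to 9.47 with a median of 8.67 in scrambled, and from 7.60 to 8.67 with a median of 7.91 in Control. All 4 dosed groups were high and Control low, with 1 Control array reaching into the dosed range except that of siTNF. Tnf was higher than in Control by 0.74 ± 0.14 log2 in siTNF-OMe-P, 0.84 ± 0.15 in siTNF-OMe, 1.15 ± 0.15 in siTNF and 0.96 ± 0.15 in scrambled (SE; limma adjusted p = 2.54e-04, 1.48e-04, 2.12e-06 and 1.83e-05). No group dosed with an siRNA against Tnf was lower in Tnf than scrambled beyond the error. The differences were -0.23 (95% interval -0.54 to 0.08) for siTNF-OMe-P, -0.12 (-0.46 to 0.21) for siTNF-OMe and 0.19 (-0.14 to 0.52) for siTNF.

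**Figure D1:**
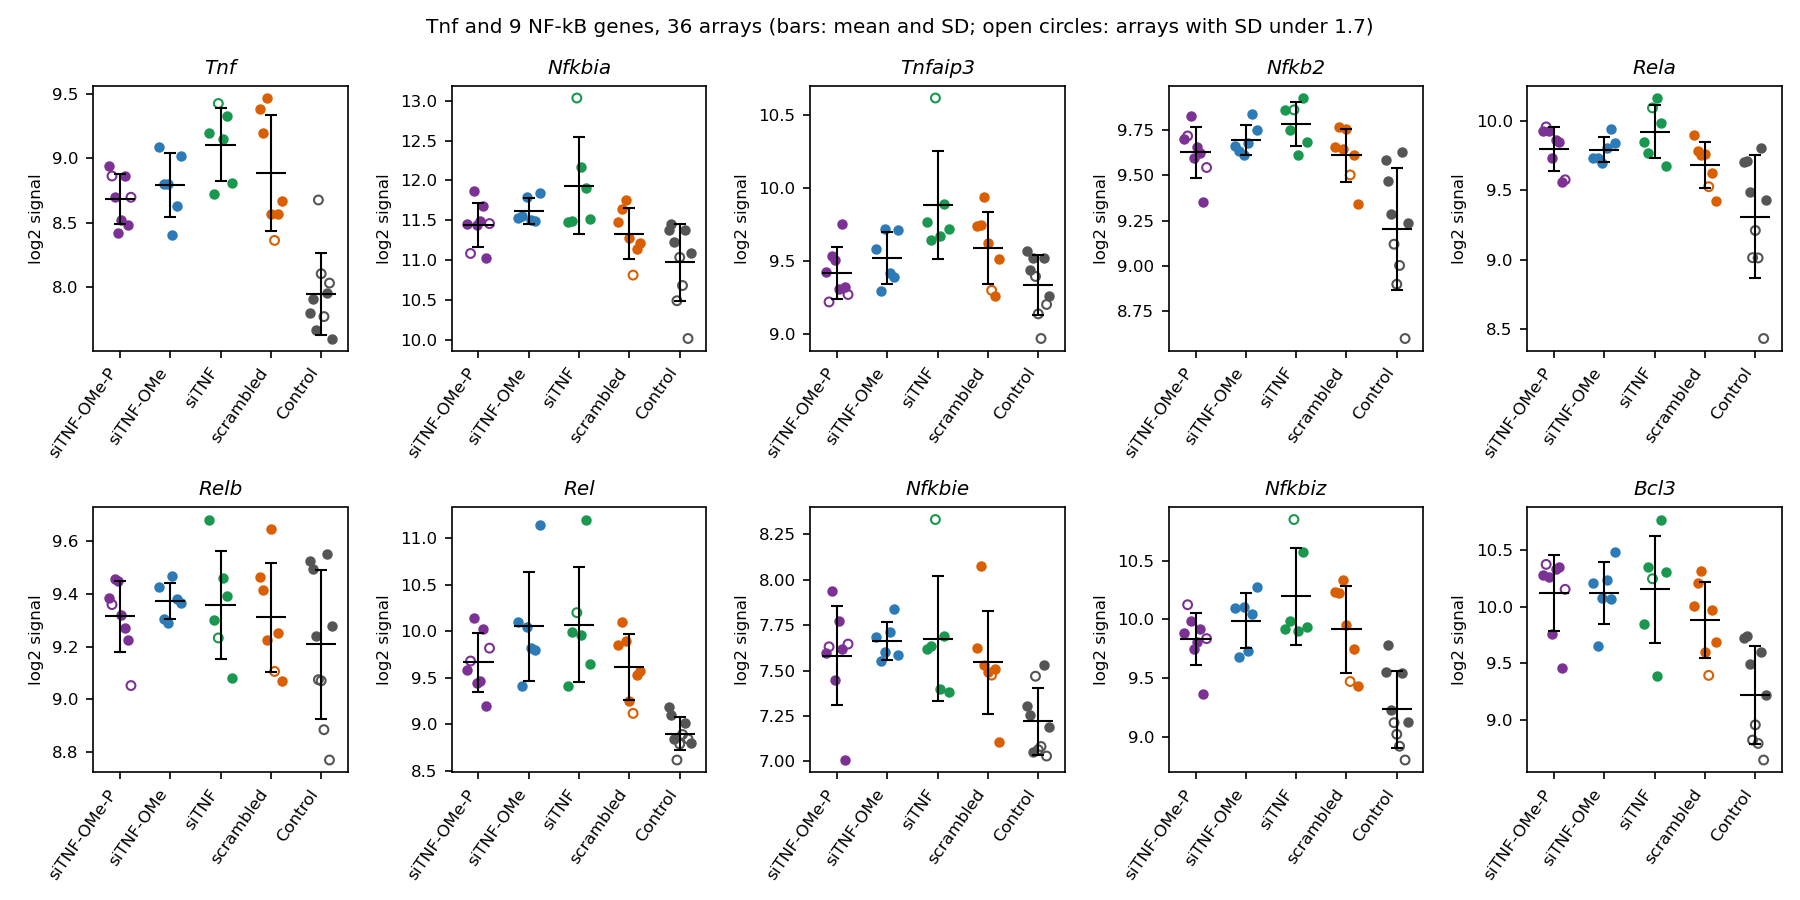
Log2 signal (vertical axis, a separate scale for each gene) of Tnf and 9 NF-kB genes in each of 36 arrays, by group; bars give the mean and SD, and open circles the 8 arrays with array SD under 1.7. Dosed arrays lie above most Control arrays for Rel, Nfkbiz and Bcl3, while the ranges of Relb overlap in all groups.

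Most NF-kB genes were higher in every dosed group than in Control, and none was lower. In siTNF-OMe-P 6 of 9 passed the test, in siTNF-OMe 7, in siTNF 8 and in scrambled 5, all higher. The share of all 28853 probe sets called higher was 9.35%, 9.01%, 9.09% and 7.27% in the same 4 comparisons. All 9 differences were positive in each comparison, with medians of 0.45, 0.49, 0.60 and 0.39 log2, against medians over all probe sets of -0.03, -0.05, -0.04 and -0.03. The arrays of the dosed group lay wholly above those of Control for 1 of 9 genes in siTNF-OMe-P (2.5% of all probe sets), 3 in siTNF-OMe (4.56%), 4 in siTNF (2.29%) and 0 in scrambled (1.82%). With the 8 narrow arrays left out, 1, 5, 5 and 3 of the 9 genes were called in the same order. Beside these counts, 48.0%, 54.0%, 20.9% and 49.97% of all probe sets were called in either direction. Apart from siTNF, the counts of that fit lay near or under the share of all probe sets. The 4 comparisons share the Control arrays, so they are not independent of each other. In whole tissue, more cells of a type and more RNA per cell cannot be told apart.

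Among the subunits, Rel, which encodes c-Rel and is best known from lymphoid and myeloid cells, had the largest difference of the 9 genes in siTNF-OMe, siTNF and scrambled, while in siTNF-OMe-P that of Bcl3 was larger. Its signal ran from 9.19 to 10.1 with a median of 9.63 in siTNF-OMe-P, from 9.41 to 11.1 with a median of 9.93 in siTNF-OMe, and from 9.42 to 11.2 with a median of 9.98 in siTNF. It ran from 9.12 to 10.1 with a median of 9.57 in scrambled and from 8.61 to 9.19 with a median of 8.84 in Control. Control was low and narrow in range, and of the dosed groups scrambled alone overlapped it. Rel was higher than in Control by 0.78 ± 0.20 log2 in siTNF-OMe-P, 1.16 ± 0.22 in siTNF-OMe, 1.17 ± 0.22 in siTNF and 0.72 ± 0.21 in scrambled (SE; limma adjusted p = 0.00592, 2.15e-04, 2.58e-04 and 0.0199). The highest array of siTNF-OMe stood at 11.1 and that of siTNF at 11.2. The call in scrambled was lost without any 1 of scrambled replicates 1, 2 and 3, where the difference was 0.62 or more.

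Rela and Nfkb2 moved by less and with overlap. Rela, the p65 subunit of the classical dimer, ranged from 9.42 to 10.2 over the 27 dosed arrays, against 8.43 to 9.80 over the 9 Control arrays. Its differences were 0.48 ± 0.12 log2 in siTNF-OMe-P, 0.48 ± 0.13 in siTNF-OMe, 0.60 ± 0.13 in siTNF and 0.39 ± 0.13 in scrambled (SE; limma adjusted p = 0.00423, 0.00969, 0.00160 and 0.0381). Dosed groups were tight and Control spread widely (SD of 0.09 to 0.19 in the dosed groups, against 0.44 in Control). The scrambled call was lost when any 1 of 9 arrays was left out (Control replicates 4, 5, 6 and 8, and scrambled replicates 1, 2, 3, 4 and 6). Nfkb2, the precursor p100 that acts both as an inhibitor and, once processed, as the p52 subunit, ranged from 9.34 to 9.93 in dosed arrays and from 8.60 to 9.63 in Control arrays. It was higher by 0.43 ± 0.10 log2 in siTNF-OMe-P, 0.49 ± 0.10 in siTNF-OMe, 0.56 ± 0.10 in siTNF and 0.42 ± 0.10 in scrambled (SE; limma adjusted p from 2.05e-04 to 0.00327).

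Relb, the partner of p52 in the alternative pathway, passed in none of the 4 comparisons. Signals ran from 9.05 to 9.46 in siTNF-OMe-P, from 9.29 to 9.47 in siTNF-OMe, from 9.08 to 9.68 in siTNF, from 9.07 to 9.64 in scrambled and from 8.77 to 9.55 in Control. The groups overlapped throughout. Its differences from Control were 0.10 (95% interval -0.09 to 0.28) in siTNF-OMe-P, 0.17 (-0.04 to 0.37) in siTNF-OMe, 0.13 (-0.07 to 0.33) in siTNF and 0.12 (-0.07 to 0.32) in scrambled, so a rise above 0.37 log2 lies outside all 4 intervals. The Relb difference turned below 0 in all 4 comparisons with the narrow arrays left out (-0.076, -0.035, -0.020 and -0.051).

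Of the inhibitors, Nfkbia, which encodes IkB-alpha, the inhibitor that is degraded and then remade in the feedback loop, had its highest mean in siTNF. Its signal ran from 11.03 to 11.9 with a median of 11.5 in siTNF-OMe-P, from 11.5 to 11.8 with a median of 11.5 in siTNF-OMe and from 11.5 to 13.03 with a median of 11.7 in siTNF. It ran from 10.8 to 11.8 with a median of 11.3 in scrambled and from 10.0 to 11.4 with a median of 11.1 in Control. The siTNF and siTNF-OMe arrays lay wholly above Control, while the other dosed groups overlapped it. Nfkbia was higher than in Control by 0.63 ± 0.19 log2 in siTNF-OMe and 0.98 ± 0.19 in siTNF (SE; limma adjusted p = 0.0241 and 5.12e-04). In siTNF-OMe-P and scrambled the differences were 0.45 (95% interval 0.09 to 0.82) and 0.37 (-0.005 to 0.75), short of the threshold (limma adjusted p = 0.0889 and 0.253). The siTNF-OMe call was lost without Control replicate 4, siTNF-OMe replicate 3 or siTNF-OMe replicate 6, and a siTNF-OMe-P call was gained without Control replicate 2, Control replicate 7 or siTNF replicate 3.

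Tnfaip3 encodes A20, a ubiquitin-editing enzyme that shuts off signalling upstream of the IkB kinases. It passed in siTNF alone. Signals ran from 9.22 to 9.76 with a median of 9.38 in siTNF-OMe-P, from 9.30 to 9.72 with a median of 9.50 in siTNF-OMe and from 9.65 to 10.6 with a median of 9.74 in siTNF. They ran from 9.26 to 9.94 with a median of 9.62 in scrambled and from 8.97 to 9.57 with a median of 9.40 in Control. The siTNF arrays were all above the Control arrays, and the other dosed groups overlapped Control. The differences from Control were 0.08 (95% interval -0.15 to 0.31) in siTNF-OMe-P, 0.17 (-0.08 to 0.42) in siTNF-OMe, 0.55 (0.31 to 0.80) in siTNF and 0.26 (0.03 to 0.50) in scrambled (limma adjusted p = 0.792, 0.445, 0.00141 and 0.172). Without siTNF replicate 3, whose Tnfaip3 signal of 10.6 was the highest of all arrays, the siTNF difference was 0.42 (limma adjusted p = 0.0105). The call was lost without the narrow arrays, where the difference was 0.28 (adjusted p = 0.0633), and within hybridization batches 1 and 2, where it was 0.61 and 0.47 (adjusted p = 0.102 and 0.0986).

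Nfkbiz and Bcl3 encode the nuclear relatives of the IkB proteins, IkB-zeta and Bcl-3, which bind NF-kB dimers on DNA and raise or lower the output of particular genes. Both were called higher in all 4 comparisons. Nfkbiz ran from 9.36 to 10.1 in siTNF-OMe-P, from 9.68 to 10.3 in siTNF-OMe, from 9.90 to 10.8 in siTNF, from 9.44 to 10.3 in scrambled and from 8.80 to 9.78 in Control, with medians of 9.86, 10.1, 9.96, 9.95 and 9.13. Only siTNF was free of overlap with Control. The differences were 0.59 ± 0.15, 0.76 ± 0.16, 0.95 ± 0.16 and 0.70 ± 0.15 log2 in siTNF-OMe-P, siTNF-OMe, siTNF and scrambled (SE; limma adjusted p = 0.00408, 8.55e-04, 7.42e-05 and 0.00158).

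Bcl3 signals ran from 9.39 to 10.8 over the 27 dosed arrays and from 8.64 to 9.74 over the 9 Control arrays, with medians of 10.2 and 9.22. Some arrays of every dosed group overlapped Control. Bcl3 was higher by 0.90 ± 0.18 log2 in siTNF-OMe-P, 0.92 ± 0.19 in siTNF-OMe, 0.90 ± 0.19 in siTNF and 0.68 ± 0.18 in scrambled (SE; limma adjusted p = 3.67e-04, 7.78e-04, 0.00113 and 0.0110). Nfkbie, which encodes IkB-epsilon, a cytoplasmic inhibitor with slower kinetics than IkB-alpha, was among the lowest 40% of probe sets by mean. It ran from 7.01 to 8.33 in dosed arrays and from 7.03 to 7.53 in Control arrays, and siTNF-OMe alone lay wholly above Control. Its differences were 0.36 ± 0.11, 0.43 ± 0.12, 0.46 ± 0.12 and 0.34 ± 0.12 log2 in siTNF-OMe-P, siTNF-OMe, siTNF and scrambled (SE; limma adjusted p = 0.0199, 0.0115, 0.00793 and 0.0518). The siTNF call was lost without siTNF replicate 3 (0.34, adjusted p = 0.0512), and the siTNF-OMe-P call without any 1 of Control replicate 3 and siTNF-OMe-P replicates 3 and 8. In scrambled a call was gained when any 1 of 9 arrays was left out, siTNF replicate 3 among them.

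**Figure D2:**
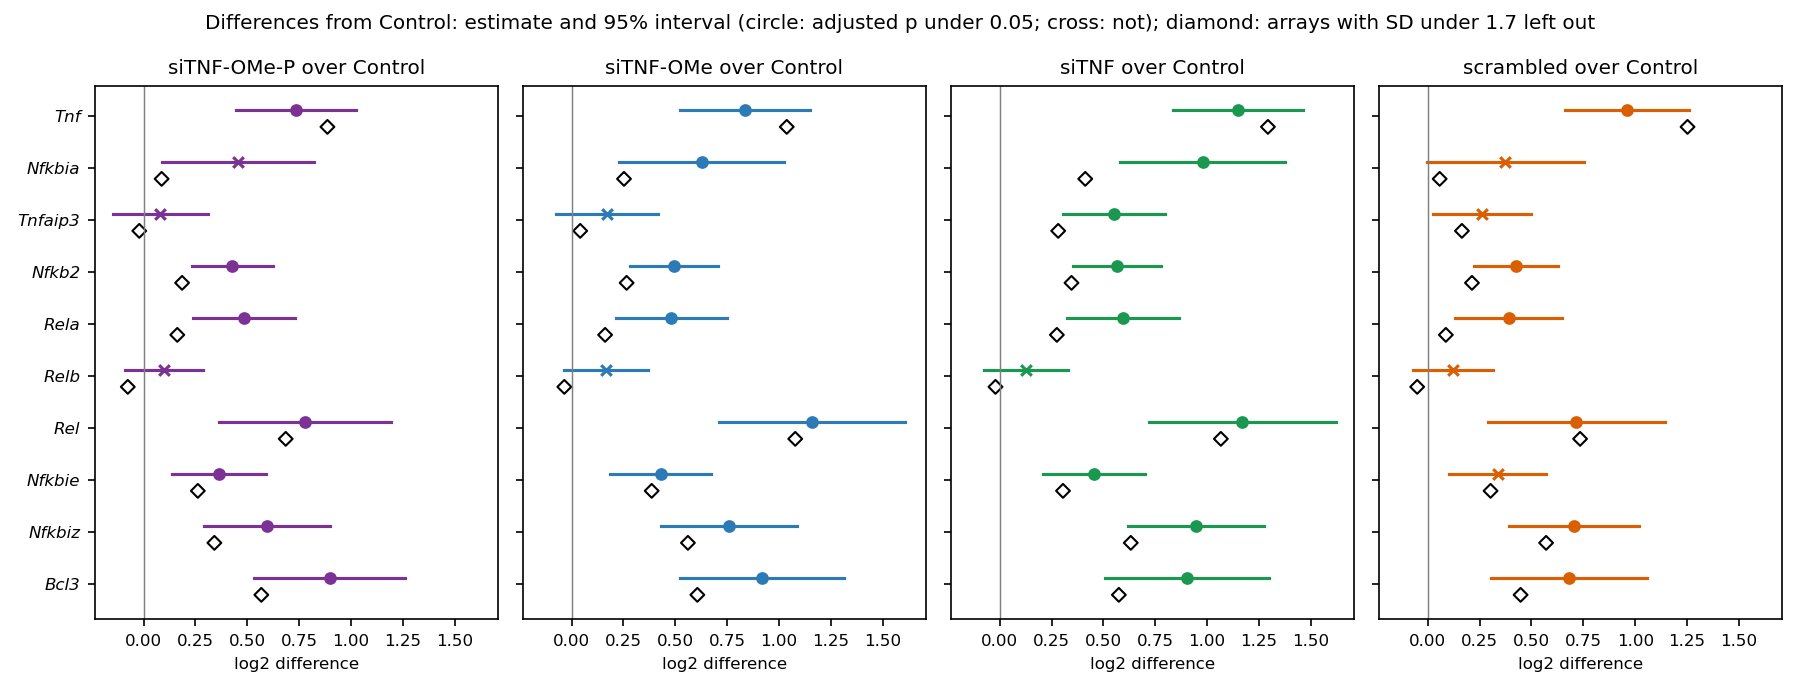
Log2 difference from Control (horizontal axis) of Tnf and 9 NF-kB genes for the 4 dosed groups, with the 95% interval; circles passed the adjusted threshold, crosses did not, and diamonds are estimates with the 8 narrow arrays left out. Estimates for Rel stayed close without those arrays, those for Rela and Nfkbia lay nearer 0, and Relb lies on both sides of 0.

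The narrow arrays bear on the size of these differences. In Control, the 4 narrow arrays lay wholly below the other 5 for 6 of the 9 genes: Nfkbia, Nfkb2, Rela, Relb, Nfkbiz and Bcl3. For Rela the ranges were 8.43 to 9.21 in the narrow Control arrays and 9.43 to 9.80 in the other Control arrays. Over all 36 arrays the correlation with array SD was 0.77 for Relb, 0.68 for Rela, 0.56 for Nfkb2 and 0.52 for Nfkbia. It was 0.44 for Bcl3, 0.38 for Nfkbiz, 0.31 for Tnfaip3, 0.30 for Rel, 0.10 for Nfkbie and 0.06 for Tnf, given as a description. With the 8 narrow arrays left out, 1 of 9 genes was called in siTNF-OMe-P (Bcl3), 5 in siTNF-OMe (Nfkb2, Rel, Nfkbie, Nfkbiz and Bcl3), 5 in siTNF (Nfkbia, Nfkb2, Rela, Rel and Nfkbiz) and 3 in scrambled (Nfkb2, Rel and Nfkbiz). The share of all probe sets called in either direction in that fit was 48.0%, 54.0%, 20.9% and 49.97%, against 15.9%, 14.8%, 13.8% and 11.7% with all arrays. The arrays kept still differed in array SD, with medians of 1.79, 1.78, 1.81 and 1.78 in siTNF-OMe-P, siTNF-OMe, siTNF and scrambled, against 1.82 in Control. With array SD as a covariate on all 36 arrays, 7, 7, 8 and 6 of the 9 genes were called in the same 4 comparisons, beside 32.6%, 29.8%, 26.3% and 25.6% of all probe sets. After quantile normalization 6, 7, 8 and 6 were called, beside 19.7%, 18.02%, 16.7% and 14.4% of all probe sets. The shares of all probe sets in these fits all count calls in either direction. The part of array SD in the differences was not tested further.

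Single genes differed in how far they depended on those arrays. Rel was 0.69, 1.08, 1.07 and 0.73 log2 above Control without the narrow arrays in siTNF-OMe-P, siTNF-OMe, siTNF and scrambled (limma adjusted p = 0.0516, 0.00334, 0.00909 and 0.0349), close to its values with them. Rela was 0.16, 0.16, 0.28 and 0.09 above Control there, of which siTNF alone was called (limma adjusted p = 0.0393). Nfkbia was 0.09, 0.25, 0.41 and 0.06, again with a call in siTNF alone (limma adjusted p = 0.0280).

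Among the other genes the same omission gave smaller differences. Nfkb2 was 0.19, 0.27, 0.35 and 0.21 log2 above Control in siTNF-OMe-P, siTNF-OMe, siTNF and scrambled (limma adjusted p = 0.0849, 0.0146, 0.00652 and 0.0461), with its siTNF-OMe-P call lost. Bcl3 was 0.57, 0.61, 0.57 and 0.45, with its calls in siTNF and scrambled lost (limma adjusted p = 0.0346, 0.0204, 0.0625 and 0.0793). Nfkbiz was 0.34, 0.56, 0.63 and 0.57, with its siTNF-OMe-P call lost (limma adjusted p = 0.0932), and Nfkbie was 0.26, 0.39, 0.31 and 0.30, called in siTNF-OMe alone. Tnfaip3 was -0.021, 0.04, 0.28 and 0.16, with no call. Tnf was 0.89, 1.04, 1.29 and 1.25 above Control without the narrow arrays, each more than with them.

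Within the hybridization batches the signs largely held, and the calls depended on the batch. Shares of all probe sets given here count calls in either direction. In batch 1, with 3 or 4 mice a group, 7, 8, 9 and 8 of the 9 differences from Control were positive in siTNF-OMe-P, siTNF-OMe, siTNF and scrambled, and 0, 0, 1 and 0 were called, beside 4.89%, 4.27%, 2.73% and 3.57% of all probe sets. In batch 2, with 3 to 5 mice a group, all 9 were positive in each comparison and 6, 5, 6 and 3 were called, beside 7.68%, 7.29%, 5.49% and 3.63% of all probe sets. Rel was 0.73, 0.86, 1.37 and 0.78 log2 above Control within batch 1, and 0.84, 1.51, 0.96 and 0.71 within batch 2.

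Other genes of the pathway were taken from 3 lists. Of 17 measured kinases and adaptors upstream of NF-kB, 2 were higher and 1 lower than Control in siTNF-OMe-P, 2 higher and 2 lower in siTNF-OMe, 4 higher in siTNF and 1 higher in scrambled. Of all probe sets, 9.35%, 9.01%, 9.09% and 7.27% were called higher and 6.58%, 5.81%, 4.71% and 4.45% lower in the same 4 comparisons, so apart from siTNF the counts called higher lie near the background. The mean of this list over an array had a correlation of 0.88 with array SD over the 36 arrays. Their median differences were 0.11, 0.15, 0.20 and 0.14 log2. Myd88, the adaptor of Toll-like and interleukin-1 receptors, was called in all 4, at 1.00 ± 0.17, 1.07 ± 0.18, 0.96 ± 0.18 and 0.93 ± 0.18 (SE; limma adjusted p from 4.93e-05 to 3.42e-04). Map3k14, the NF-kB-inducing kinase of the alternative pathway, was called in 3, at 0.22 ± 0.08 in siTNF-OMe-P, 0.31 ± 0.08 in siTNF-OMe and 0.26 ± 0.08 in siTNF (SE; limma adjusted p = 0.0440, 0.00895 and 0.0293), and stood at 0.22 ± 0.08 in scrambled without a call. Tab1, a partner of the kinase TAK1, was called lower in siTNF-OMe-P at -0.38 ± 0.11 and in siTNF-OMe at -0.40 ± 0.12 (SE; limma adjusted p = 0.0155 and 0.0220), with -0.26 ± 0.12 in siTNF and -0.25 ± 0.12 in scrambled. Ikbkg, the regulatory subunit NEMO of the IkB kinase complex, fell by 0.23 ± 0.07 in siTNF-OMe (SE; limma adjusted p = 0.0279), and its other 3 differences ran from -0.18 to -0.058. In siTNF, Birc3, a ubiquitin ligase of the TNF receptor complex, rose by 0.53 ± 0.13, and Bcl10, an adaptor of antigen receptor signalling, by 0.45 ± 0.15 (SE; limma adjusted p = 0.00452 and 0.0423), while in the other 3 comparisons Birc3 ran from 0.11 to 0.29 and Bcl10 from 0.24 to 0.29 without a call.

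Among 19 other inhibitors and ubiquitin editors, 6, 6, 9 and 5 were higher than Control in siTNF-OMe-P, siTNF-OMe, siTNF and scrambled, and none was lower, against 9.35%, 9.01%, 9.09% and 7.27% of all probe sets called higher. The mean of this list over an array had a correlation of 0.71 with array SD. Their medians were 0.10, 0.18, 0.22 and 0.20 log2. Socs3, a feedback inhibitor of cytokine receptors, was higher by 1.78 ± 0.25, 2.12 ± 0.27, 1.99 ± 0.27 and 1.58 ± 0.26, and Tnip3, a binding partner of A20, by 1.49 ± 0.27, 1.74 ± 0.29, 1.57 ± 0.29 and 1.64 ± 0.28 (SE). Zc3h12a, an RNase that degrades cytokine transcripts, was called in all 4, at 0.68 ± 0.15, 0.88 ± 0.16, 1.14 ± 0.16 and 0.84 ± 0.15 (SE; limma adjusted p from 3.45e-06 to 8.73e-04). Usp18, a protease that removes the interferon-induced modifier ISG15, was also called in all 4, at 0.71 ± 0.20, 0.72 ± 0.22, 0.69 ± 0.22 and 0.98 ± 0.21 (SE; limma adjusted p from 0.00151 to 0.0322).

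Of 35 measured NF-kB target genes, 20, 20, 19 and 17 were higher than Control in siTNF-OMe-P, siTNF-OMe, siTNF and scrambled, with medians of 0.53, 0.67, 0.54 and 0.39 log2, and none was lower. The same shares of all probe sets stand beside these counts, and the mean of this list had a correlation of 0.07 with array SD. The largest differences were those of Saa3, an acute-phase protein, at 3.14 ± 0.44, 3.90 ± 0.47, 3.17 ± 0.48 and 3.07 ± 0.45, and Lcn2, an iron-trapping protein of inflamed epithelium and neutrophils, at 2.83 ± 0.30, 3.05 ± 0.33, 3.07 ± 0.33 and 2.53 ± 0.32 (SE). The third by size was Ptgs2, the inducible cyclooxygenase, in siTNF-OMe-P at 1.696 ± 0.39, Vcam1, an endothelial adhesion molecule, in siTNF-OMe at 1.81 ± 0.16, Ier3, an early response gene, in siTNF at 1.76 ± 0.26, and Cxcl10, an interferon-induced chemokine, in scrambled at 1.51 ± 0.36 (SE). Of these genes, Vcam1, Ier3 and Cxcl10 were called in all 4 comparisons and Ptgs2 in all but scrambled, where it stood at 0.58 ± 0.41.

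Markers of other cell types moved with the same contrasts, and their counts stand beside 7.27% to 9.35% of all probe sets called higher and 4.45% to 6.58% called lower. Monocyte and macrophage markers were called higher than Control for 14 of 15 in siTNF-OMe-P, 15 in siTNF-OMe, 15 in siTNF and 14 in scrambled. Their mean over an array ran from 10.2 to 11.0 in the dosed arrays, against 8.61 to 9.52 in the Control arrays, with no overlap. Neutrophil markers were higher for 7, 7, 6 and 4 of 14, with array means of 7.89 to 9.37, 8.11 to 9.15, 7.78 to 10.1 and 7.84 to 8.89, against 7.19 to 7.93 in Control. Stroma and smooth muscle markers were higher for 10, 11, 9 and 8 of 12 (array means of 11.4 to 11.9 in dosed arrays, against 10.6 to 11.5 in Control).

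B cell markers were lower for 2, 4, 4 and 4 of 8 (array means of 6.87 to 7.66 in dosed arrays, against 7.26 to 7.97 in Control). T cell markers were higher for 1 of 10 in each group, near the share of all probe sets (7.61 to 8.04, against 7.50 to 8.09). Colon epithelium markers were higher for 1, 2, 2 and 2 of 14 and lower for 1, 2, 0 and 0, with the counts called higher also near that share (11.9 to 12.4, against 11.8 to 12.4). Squamous epithelium markers, foreign to the colon proper, were higher for 5, 8, 0 and 0 of 12, with array means reaching 10.6, 10.1, 8.91 and 7.41 against 7.69 in Control. Correlations of list means with array SD were -0.51 for B cell, -0.68 for T cell, 0.62 for colon epithelium and -0.12 for squamous markers. For monocyte and macrophage, neutrophil, and stroma and smooth muscle markers they were 0.39, -0.19 and 0.47. The part of array SD in the marker differences was not tested. Log2 signals have no 0, so no marker can be called absent, and the part of these cell types in the NF-kB gene differences was not tested.

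The siRNAs differ by named changes in the nucleotides, and the 9 genes were compared between the dosed groups. None passed in any of the 6 comparisons, in which limma called 0% of all probe sets. At an unadjusted p under 0.05 there were 0 of 9 genes for siTNF-OMe-P over siTNF-OMe (0.256% of all probe sets) and 3 for siTNF-OMe-P over siTNF (3.47%). There was 1 for siTNF-OMe over siTNF (1.71%), 0 for siTNF-OMe-P over scrambled (2.9%), 0 for siTNF-OMe over scrambled (1.58%) and 2 for siTNF over scrambled (1.08%). A miss of the threshold does not show that the siRNAs acted alike. The Rel difference was -0.38 in siTNF-OMe-P over siTNF-OMe (95% interval -0.84 to 0.08), -0.39 in siTNF-OMe-P over siTNF (-0.85 to 0.07) and -0.01 in siTNF-OMe over siTNF (-0.50 to 0.48). Over scrambled it differed by 0.06 (-0.38 to 0.50) in siTNF-OMe-P, 0.44 (-0.03 to 0.92) in siTNF-OMe and 0.45 (-0.02 to 0.93) in siTNF. Rela, Relb and Nfkb2 differed by -0.14 to 0.20 in the 6 comparisons.

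The genes at that unadjusted p were Nfkbia, Tnfaip3 and Nfkbiz, none of them a subunit. Nfkbia differed by -0.52 (95% interval -0.93 to -0.12) in siTNF-OMe-P over siTNF and by 0.60 (0.18 to 1.02) in siTNF over scrambled (limma adjusted p = 0.974 and 1.00). Tnfaip3 differed by -0.47 (-0.72 to -0.22) in siTNF-OMe-P over siTNF, by -0.38 (-0.65 to -0.11) in siTNF-OMe over siTNF and by 0.29 (0.03 to 0.55) in siTNF over scrambled (limma adjusted p = 0.974, 1.00 and 1.00). In Tnfaip3, 0 of 8 siTNF-OMe-P arrays and 0 of 6 siTNF-OMe arrays exceeded the siTNF mean, though the groups overlapped. That mean of 9.89 includes siTNF replicate 3 at 10.6, and siTNF-OMe-P replicate 6 at 9.76 lay above the siTNF median of 9.74. Nfkbiz differed by -0.35 (-0.69 to -0.01) in siTNF-OMe-P over siTNF, and Tnf itself by -0.41 (-0.74 to -0.09), with a limma adjusted p of 0.974 for both.

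These differences were smaller without 1 array. Without siTNF replicate 3 the Nfkbia differences were -0.32 for siTNF-OMe-P over siTNF and 0.40 for siTNF over scrambled, and the Tnfaip3 differences were -0.34, -0.24 and 0.15 for siTNF-OMe-P over siTNF, siTNF-OMe over siTNF and siTNF over scrambled. In the same order the Tnfaip3 differences were -0.66, -0.67 and 0.50 within hybridization batch 1, which holds that array, and -0.28, -0.073 and 0.09 within batch 2. Nfkbiz in siTNF-OMe-P over siTNF was -0.21 without siTNF replicate 3, -0.70 within hybridization batch 1 and -0.016 within batch 2.

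**Figure D3:**
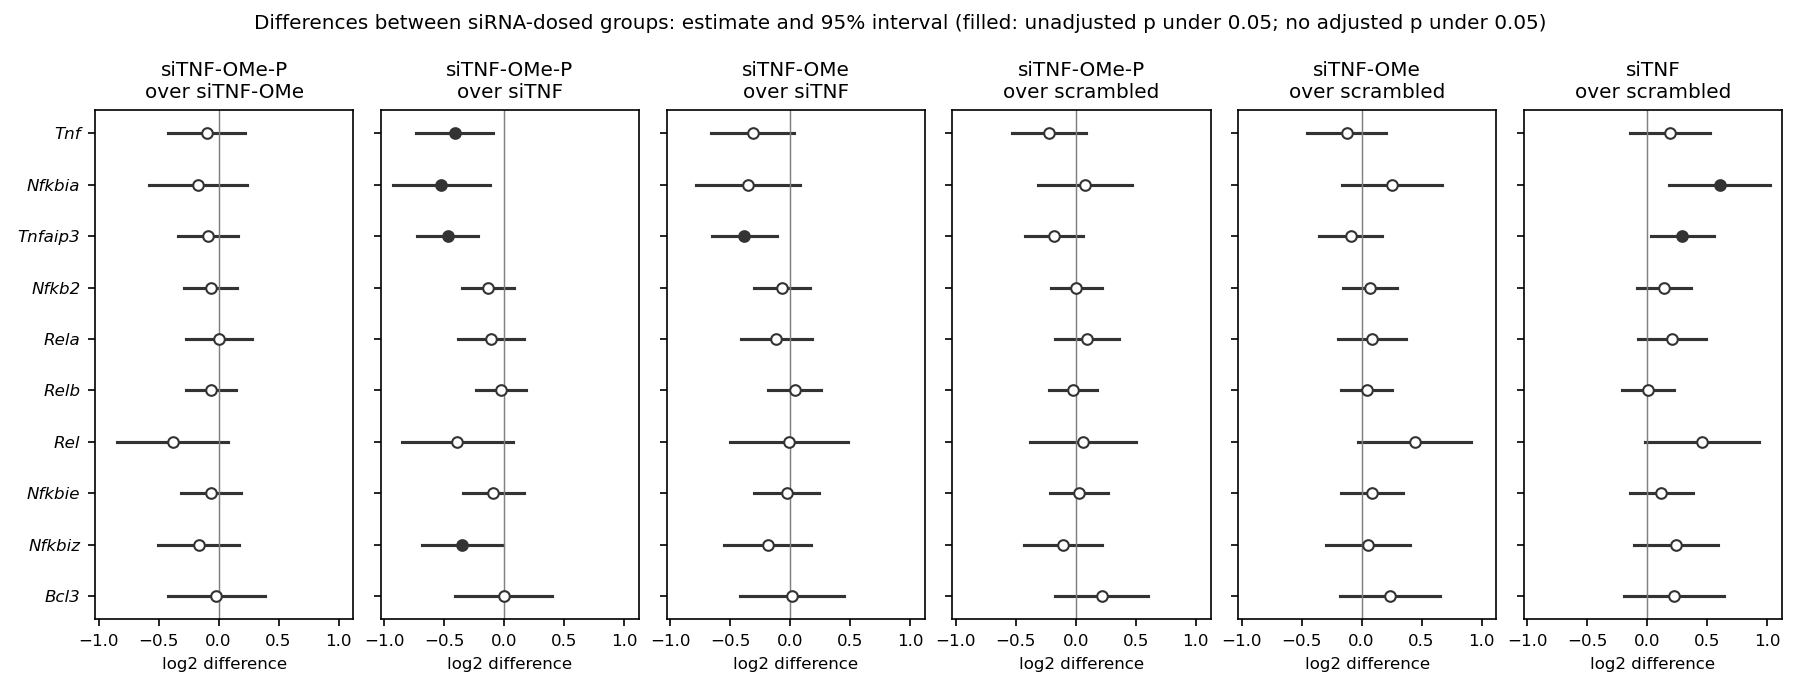
Log2 differences (horizontal axis) of Tnf and 9 NF-kB genes for the 6 comparisons between siRNA-dosed groups, with 95% intervals; filled circles had an unadjusted p under 0.05. Filled circles are those of Nfkbia, Tnfaip3, Nfkbiz and Tnf, all with siTNF as the higher group.

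The level of Tnf in each mouse was then set against the 9 genes. Over the 27 dosed arrays, less group means, Pearson's r with Tnf was 0.75 for Nfkbiz, 0.63 for Tnfaip3, 0.59 for Nfkbia, 0.56 for Rel and 0.55 for Rela, with Spearman's rho of 0.74, 0.62, 0.64, 0.64 and 0.56. It was 0.45 for Bcl3, 0.39 for Nfkbie, 0.37 for Nfkb2 and 0.18 for Relb (rho 0.47, 0.42, 0.44 and 0.21). Leaving out the 2 arrays farthest from the median of Tnf (scrambled replicate 3 at 9.47 and siTNF replicate 3 at 9.42) gave r of 0.71, 0.57, 0.54, 0.56 and 0.53 for the first 5 genes. In hybridization batches 1 and 2 r was 0.73 and 0.76 for Nfkbiz, 0.62 and 0.61 for Tnfaip3, 0.52 and 0.69 for Rel, and 0.49 and -0.18 for Relb. These correlations are given as a description, over mice that share batches.

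Single groups, of 6 to 9 mice each, lay far apart in the same r. Nfkbia stood at 0.16 in siTNF-OMe-P, 0.46 in siTNF-OMe, 0.71 in siTNF and 0.91 in scrambled, and Tnfaip3 at 0.16, 0.55, 0.69 and 0.89. Rela was at -0.31 in siTNF-OMe and from 0.57 to 0.76 in the other dosed groups. In Control, r was below 0 for 7 of the 9 genes, at -0.50 for Rel, -0.45 for Nfkbia, -0.43 for Bcl3, -0.37 for Rela and -0.15 for Nfkbiz, near 0 for Tnfaip3 and 0.44 for Nfkbie. Over all 36 arrays, with group and batches removed, r with Tnf was 0.48 for Rel, 0.44 for Nfkbiz, 0.40 for Tnfaip3, 0.26 for Nfkbie, 0.17 for Bcl3 and 0.15 for Nfkbia, and -0.10, -0.13 and -0.23 for Rela, Nfkb2 and Relb. With array SD as a further term these were 0.62, 0.58, 0.52, 0.23, 0.37 and 0.44, and 0.26, 0.12 and 0.07. With group and batches removed, array SD itself had r of -0.37 with Tnf, 0.73 with Rela and 0.74 with Relb.

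The test of this relation was the slope on Tnf in limma, within groups, over all 36 arrays and all probe sets. None of the 9 genes passed (1 probe set did in all, 0.00347%), and 3 had an unadjusted p under 0.05, against 23.1% of all probe sets. The slopes of those 3 were 0.70 ± 0.24 log2 per log2 of Tnf for Rel, 0.46 ± 0.18 for Nfkbiz and 0.30 ± 0.14 for Tnfaip3 (SE; limma adjusted p = 0.216 for each). The other slopes ran from -0.14 for Relb to 0.22 for Bcl3. In this fit 6 of the 9 slopes were positive. With array SD as a covariate all 9 were positive and 0 of 9 passed, beside 0.0173% of all probe sets. Control replicate 4 is a narrow array with a Tnf signal of 8.67. Without it the slopes were 0.93 for Rel, 0.62 for Nfkbiz, 0.40 for Tnfaip3 and 0.48 for Nfkbia, which stood at 0.20 with it, and still none of the 9 passed. After quantile normalization the Nfkbia slope was 0.50, again with no call among the 9. In the 27 dosed arrays alone the slopes were 1.19 for Rel, 0.81 for Nfkbiz, 0.77 for Nfkbia, 0.68 for Bcl3, 0.52 for Tnfaip3 and -0.06 for Relb (limma adjusted p = 0.270, 0.162, 0.162, 1.00, 0.545 and 1.00).

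**Figure D4:**
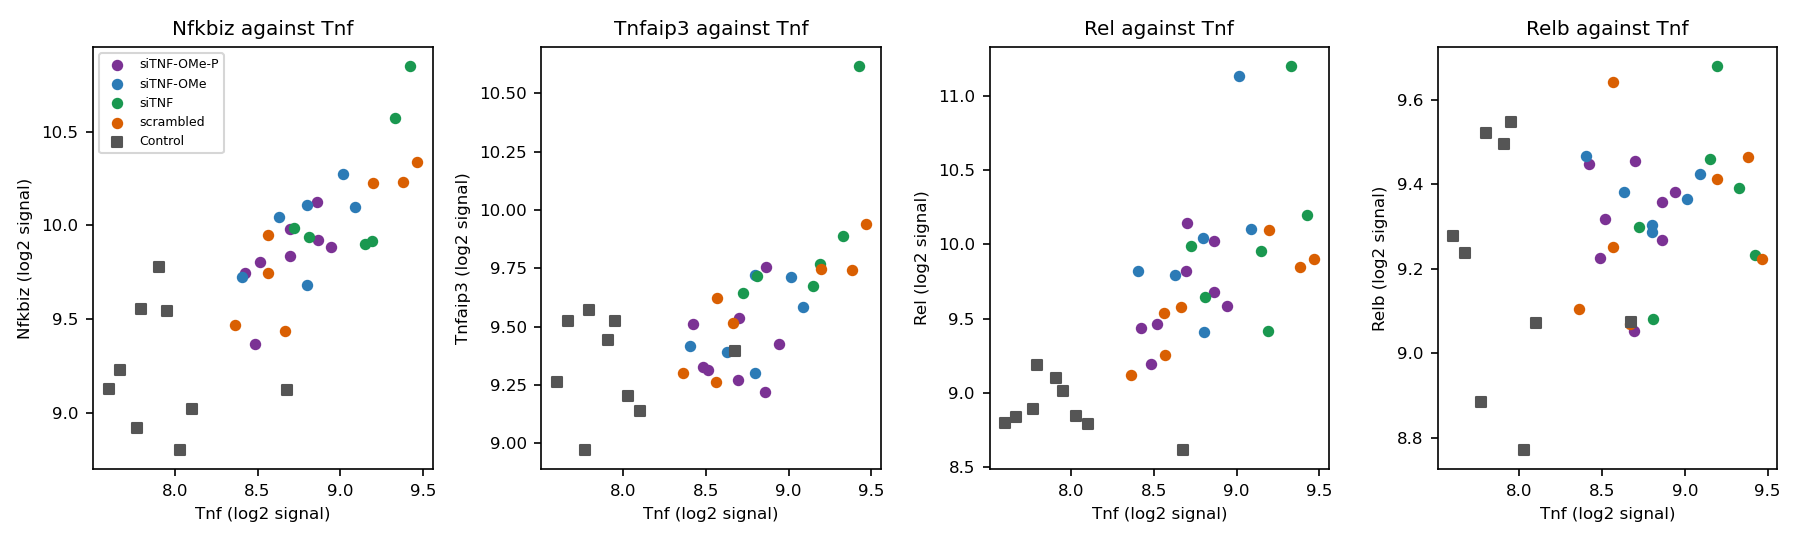
Log2 signal of Nfkbiz, Tnfaip3, Rel and Relb (vertical axes) against that of Tnf (horizontal axes), 1 point per array, circles for the 27 dosed arrays by group and squares for Control. Nfkbiz, Tnfaip3 and Rel are higher where Tnf is higher among the dosed arrays, and Relb is not.

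Myeloperoxidase activity, an enzyme activity carried by neutrophils and given in the labels for each mouse, was used as a readout outside the arrays. Its median was 0.407 U per mg in siTNF-OMe-P, 0.513 in siTNF-OMe, 0.206 in siTNF, 0.393 in scrambled and 0.038 in Control. Over the 27 dosed mice 0 of 9 genes passed for the slope on log2 activity, as did 0% of all probe sets. At an unadjusted p under 0.05 there were 3 of 9, Rel at 0.204 ± 0.077 log2 per doubling, Nfkbia at 0.148 ± 0.044 and Nfkbiz at 0.113 ± 0.052 (SE; limma adjusted p = 0.980 for each), against 3.41% of all probe sets.

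The 9 genes were also compared with each other within groups. Over 36 arrays, with group and batches removed, all 36 pairs of the 9 genes had a positive correlation, with a median r of 0.56. The share of positive pairs among other genes was not computed, so this count cannot be called particular to these genes. The highest was Nfkb2 with Rela at 0.85, followed by Nfkbia with Rela, Nfkbia with Nfkbiz and Nfkbiz with Bcl3 at 0.78 each, and the lowest Relb with Rel at 0.15. The arrays share batches and array SD. With array SD as a further term the median was 0.53, Nfkb2 with Rela stood at 0.76, Nfkbia with Nfkbiz at 0.79, and Relb with Rel at -0.03.

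**Figure D5:**
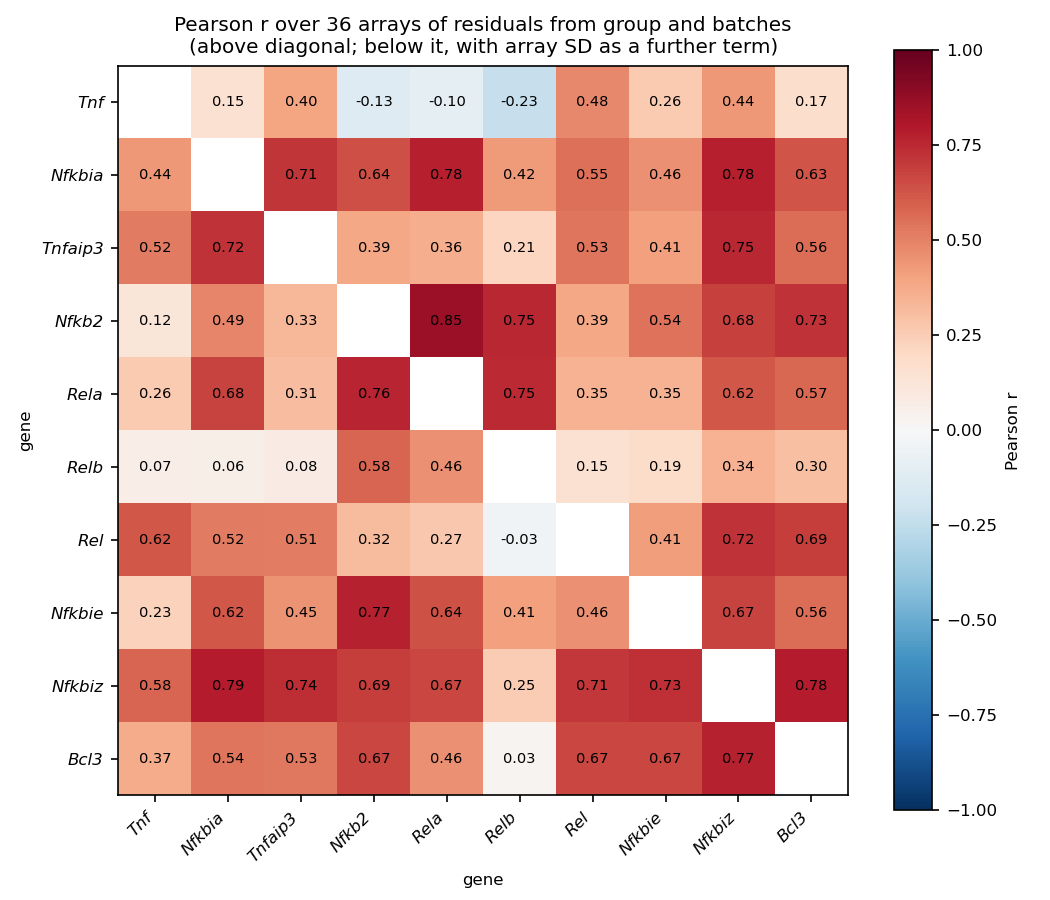
Pearson r between residual log2 signals of Tnf and 9 NF-kB genes over 36 arrays, above the diagonal with group and batches removed and below it with array SD removed as well. Below the diagonal, Relb is highest with Nfkb2 at 0.58, Rela at 0.46 and Nfkbie at 0.41.

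The genes most like each member over the 36 arrays, by the same residual correlation over all single-gene probe sets, were these. For Nfkbia they were Sod2, mitochondrial superoxide dismutase (r = 0.89), and Adm, the vasodilator adrenomedullin (0.88). For Tnfaip3 they were Nfkbiz (0.75) and Cd14, the lipopolysaccharide co-receptor of monocytes (0.72), and for Nfkbiz Sbno2 (0.83) and Adm (0.80). Rel was closest to Tnfrsf1b, the second TNF receptor (0.87), and Tifa, an adaptor of TRAF proteins (0.86), and Nfkbie to the leukocyte signalling genes Rac2 (0.88) and Pik3cd (0.86). Bcl3 was closest to Smox, spermine oxidase (0.91), and Hk2, a hexokinase (0.87). Rela was closest to Furin (0.94) and Sf1 (0.94), Nfkb2 to Ephb4 (0.89) and Arap1 (0.88), and Relb to Ciz1 (0.92) and Casc3 (0.91). With array SD as a further term these fell to 0.88, 0.87, 0.83, 0.82, 0.81 and 0.79 for the partners of Rela, Nfkb2 and Relb, while Rel with Tnfrsf1b stood at 0.90.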

How the data were processed

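Total RNA of distal colon, 25 ng per mouse, was amplified, labelled and hybridized to Affymetrix arrays, per the labels' protocols. The deposited values are log2 signals; the authors used RMA and Partek, versions not given, per the submitters' processing notes. Background levels and any batch correction are not given in the sources used here. Precision is limited by how many arrays there are. The annotation pairs 21789 of 28853 probe sets with 1 gene, 1621 with several and 5443 with none; positions and promoters are RefSeq's of GRCm38.p6. Nothing was filtered.

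limma 3.58.1 in R 4.3.3 fitted group with both batches (28 residual degrees of freedom) to all 36 arrays, moderated by eBayes with trend, for 10 comparisons, and slopes on Tnf and on log2 myeloperoxidase activity. The fit was tested on simulated data with independent noise, without batch effects or differing array SD, so that test does not bear on those. Correlations used SciPy 1.17.1, with Python 3.11.15, pandas 2.3.3, NumPy 2.4.6 and matplotlib 3.10.9.

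The members, lists and tests were chosen with earlier results of these data known. Named besides the members were Tnf, up to 3 called genes each way per pathway list and comparison, and the 2 closest genes of each member. Each mouse carries its own colon measures in the labels, so arrays were taken as separate animals. Of 64 pairs of same-numbered replicates of different groups, 32 had r above 0.1 (from -0.70 to 0.87). Pairs of unlike number were not compared, and replicate numbers partly follow the batches. The numbers were not used as pairs in the main fit. Alternatives changed the batch terms, arrays, normalization, filter on dim probe sets, moderation and probe set rule.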

Additional observations from a re-analysis of the deposited data

Results flagged for a closer look

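Each of 50 sets (Tnf or 1 of the 9 genes, in 1 group) was checked for an array far from the others by Dixon's ratio, which flags about 1 set in 20 by chance (2.5 sets), and 3 were flagged. Tnf in Control replicate 4 was 8.67, with the next Control array at 8.10. Tnfaip3 in siTNF replicate 3 was 10.6, with the next siTNF array at 9.89, and Nfkbie in the same array was 8.33, with the next at 7.69. Both arrays are narrow, with array SDs of 1.55 and 1.69.

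The siTNF replicate 3 array also had the highest Nfkbia signal of its group (13.03), the highest mean of neutrophil markers of all 36 arrays (10.1) and the highest mean of NF-kB target genes (9.92). Its squamous epithelium markers averaged 8.91, ranked 7 from the top, and its colon epithelium markers 11.9, ranked 34. The part of these in its NF-kB gene values was not tested.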

How the results depend on the processing

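In 17 alternatives for each group comparison, the counts of called genes over Control (6, 7, 8 and 5 of 9 in siTNF-OMe-P, siTNF-OMe, siTNF and scrambled) stayed within 1.5 times in 13, 14, 12 and 11. They moved further within hybridization batch 1 (0, 0, 1 and 0, beside 4.89%, 4.27%, 2.73% and 3.57% of all probe sets). Within amplification batch 3 they were 0 in each, beside 0.201%, 0.700%, 0.381% and 0.187%. Within amplification batch 2, also a part of the arrays, they were 7, 6, 7 and 7, beside 10.5%, 7.58%, 13.1% and 11.9%. All shares of probe sets in this paragraph count calls in either direction. The narrow Control arrays are replicates 4, 5 and 6, in amplification batch 2, and replicate 8, in amplification batch 3. Replicate 4 was in hybridization batch 1, and replicates 5, 6 and 8 in batch 2. The counts also moved further within amplification batch 1, where siTNF-OMe and scrambled had 1 array each and Control 2. A group of 1 array is assumed to vary like the other groups, so counts there are not given. Signs in amplification batch 1 rest on 1 array each in siTNF-OMe and scrambled, and on 2 each in siTNF-OMe-P, siTNF and Control. In scrambled the count was 3 within hybridization batch 2, 3 without narrow arrays and 3 when 2 groups alone were fitted. In siTNF it was 5 without narrow arrays and 5 when 2 groups alone were fitted, and in siTNF-OMe-P 1 without the narrow arrays. With the replicate block in place of the batch terms the counts were 6, 6, 7 and 4. Leaving out 1 array at a time gave 5 to 7, 6 to 7, 7 to 8 and 3 to 6, with 3 without scrambled replicate 1, 2 or 3. The 6 comparisons between dosed groups kept a count of 0 in all 17, and when any 1 array was left out. For the slope on Tnf, array weights called 3 of 9 (Nfkbia, Tnfaip3 and Nfkbiz), beside 0.423% of all probe sets, and dropping the group term 8, beside 16.6%, and the other 14 alternatives 0. For the slope on myeloperoxidase activity all 14 gave 0. The causes of these changes, the number of arrays among them, were not tested.

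Differences over Control that changed sign did so in 22 of 676 single-gene recalculations, with no call on the changed side, nearly all Relb and Tnfaip3. Relb in siTNF-OMe-P was -0.013 within hybridization batch 1, -0.076 without the narrow arrays, -0.030 with array weights, and -0.14 and -0.094 within amplification batches 1 and 3. In siTNF-OMe Relb was -0.035 without the narrow arrays and -0.16 within amplification batch 1. In siTNF it was -0.020 without the narrow arrays, -0.029 with array weights and -0.019 within amplification batch 1. In scrambled it was -0.039 within hybridization batch 1, -0.051 without the narrow arrays, -0.060 with array weights, and -0.12 and -0.057 within amplification batches 1 and 3. Tnfaip3 in siTNF-OMe-P was -0.047 within hybridization batch 1, -0.021 without the narrow arrays, -0.060 with array weights, and -0.18 and -0.036 within amplification batches 1 and 3, and in siTNF-OMe it was -0.052 within hybridization batch 1. Nfkbia in siTNF-OMe-P was -0.15 within amplification batch 1. Between dosed groups, where recalculation was limited after seeing values to genes at an unadjusted p under 0.05, Nfkbiz in siTNF-OMe-P over siTNF was 0.051 within amplification batch 1.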
